A study of Mus musculus with 20 samples.

Results

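The levels of 10 transcripts of blood cells were followed in sorted sensory neurons of the mouse: 5 of the red cell lineage (Hba-a1, Hba-a2, Hbb-b1, Hbb-b2 and Alas2) and 5 of neutrophils (S100a8, S100a9, Ngp, Camp and Ltf). They were taken by their Ensembl identifiers, and all 10 of 10 were found among the 37620 genes listed of which 28233 had a read in some library. The neurons came from dorsal root ganglia (DRG), the clusters of sensory nerve cell bodies beside the spinal cord, of adult Trpv1tm2Bbm homozygous mice aged 6 to 8 weeks. These mice carry β-galactosidase behind the Trpv1 gene, and the brightest 15% of cells positive for its fluorescent product DDAO were sorted. There were 4 groups of 5 libraries, male lumbar, male sacral, female lumbar and female sacral, with lumbar meaning spinal levels L4-5 and sacral L6-S1. The lumbar and the sacral library with the same animal numbers were taken as one donor, named M1 to M5 for males and F1 to F5 for females. The labels name no treatment, and no mice without the reporter and no unsorted ganglia were analysed here. Each label carries 2 animal numbers, while the study counts 5 male and 5 female mice, so a library may hold cells of more than one animal.

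Red cells carry oxygen on hemoglobin, a tetramer of 2 α-globin and 2 β-globin chains, and they are the most abundant cells of blood. They lose their nucleus before they enter the circulation but keep some globin mRNA for a time. Neutrophils are short-lived white cells of the first line of defense. Their precursors in bone marrow fill a succession of granules with antimicrobial proteins, so that transcripts for granule proteins are highest in immature cells, while S100a8 and S100a9 remain abundant in mature ones. Neither cell type is sorted for by the Trpv1 reporter.

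Markers of sensory neurons and of glia were both high in the sorted cells. All 9 neuronal markers had a value in every library, with Calca at a mean log2 RPKM of 9.98 ± 0.23 in lumbar and 9.82 ± 0.25 in sacral DRG (SD, n = 10 libraries each). RPKM is reads per kilobase of transcript scaled to library size, and it allows levels of different genes to be compared. All 10 glial markers also had a value in every library, among them Pmp22 at 9.64 ± 0.32 in lumbar DRG. Summed levels were 2791 to 6892 RPM for 8 neuronal and 3036 to 5968 for the 10 glial genes (RPM, reads of a gene scaled to the library's reads and not to gene length). The neuronal marker Uchl1, whose read numbers could not be recovered, is not in the sum, so the 2 sums do not compare neuronal with glial content. Each library held 43906566 to 66407317 reads on genes (median 57712283 in lumbar and 54204252 in sacral libraries). Limits drawn from read numbers cover counting error only. The p-values rest on the spread between libraries, with their pairing by donor taken into account unless stated otherwise.

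The 2 α-globin genes and the 2 β-globin genes are near copies of each other, which limits what can be said of each alone. The coding sequences of Hba-a1 and Hba-a2 are 429 bases long and differ at 1 base, C381T, counted from 1 at the first base of the start codon with Hba-a1 first. Those of Hbb-b1 and Hbb-b2 are 444 bases long and also differ at 1 base, C417T, with Hbb-b1 first. The longest run that the mRNAs share is 415 bases for the α-globins and 430 bases for the β-globins, and only uniquely aligned reads were counted, so a read inside such a run could be assigned to neither copy. The stretches around the single difference are shown because these bases, and the mRNA ends outside the shared runs, are what separated the copies. All 4 lie in the third and last exon, the differing base is in capitals, and positions are those of NCBIM37 (mm9).
Hba-a1, chr11:32184313-32184373, plus strand: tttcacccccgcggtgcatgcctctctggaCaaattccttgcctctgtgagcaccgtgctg
Hba-a2, chr11:32197130-32197190, plus strand: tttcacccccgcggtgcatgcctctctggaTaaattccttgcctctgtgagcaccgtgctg
Hbb-b1, chr7:110975179-110975236, minus strand: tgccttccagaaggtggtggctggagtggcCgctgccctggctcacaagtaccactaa
Hbb-b2, chr7:110961170-110961227, minus strand: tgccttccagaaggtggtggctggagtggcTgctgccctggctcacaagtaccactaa

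On the same build, Hba-a1 (ENSMUSG00000069919) spans 32183511 to 32184465 and Hba-a2 (ENSMUSG00000069917) 32196489 to 32197301 of chromosome 11, and Hbb-b1 (ENSMUSG00000052305) spans 110975048 to 110976610 and Hbb-b2 (ENSMUSG00000073940) 110961038 to 110962510 of chromosome 7. The other members are single genes. Alas2 (ENSMUSG00000025270) is on chromosome X from 146981918 to 147005181, on the plus strand. S100a8 (ENSMUSG00000056054) and S100a9 (ENSMUSG00000056071) are neighbors on chromosome 3, at 90472993 to 90473956 and 90496554 to 90499643. Ngp (ENSMUSG00000032484, 110322254 to 110325514), Camp (ENSMUSG00000038357, 109749889 to 109751970) and Ltf (ENSMUSG00000032496, 110921796 to 110945270) all lie on chromosome 9. Alas2 lies within the span of Apex2 on the opposite strand, and their exons overlap at the end of Alas2. Whether counting used the strand is not given in the sources used here, so the value of Alas2 is uncertain. No other member overlaps an annotated gene.

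The 100 bases before the transcription start of 4 members are shown, to set motifs of the red cell beside those of the myeloid lineage, from RefSeq on GRCm38.p6, a later build than that of the files. By symbol, 8 of the 10 members were matched there. Capitals mark matches on either strand to 5 motifs. These are the letters TATAA (the core of the TATA box), the CCAAT box, the letters CACCC (bound by factors of the Klf family), the letters GATAA (the core of the GATA factor site) and the letters TTGCNNAA (a form of the site of C/EBP factors, which act in the myeloid lineage). Neighboring matches can share letters.
Hba-a1, chr11:32283572-32283671, plus strand: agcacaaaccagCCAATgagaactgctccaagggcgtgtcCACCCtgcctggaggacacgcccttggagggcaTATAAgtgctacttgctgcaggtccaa
Alas2, chrX:150547317-150547416, plus strand: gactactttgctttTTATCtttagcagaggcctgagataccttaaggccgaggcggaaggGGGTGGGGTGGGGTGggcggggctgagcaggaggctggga
S100a8, chr3:90668971-90669070, plus strand: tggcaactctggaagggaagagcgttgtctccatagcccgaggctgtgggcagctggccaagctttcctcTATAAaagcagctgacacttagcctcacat
Ngp, chr9:110419708-110419807, plus strand: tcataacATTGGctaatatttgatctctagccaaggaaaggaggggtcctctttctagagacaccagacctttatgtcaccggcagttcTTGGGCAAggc

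Over the whole 300-base windows, from 250 bases before to 50 after the start, GATAA was present in 5 of the 8 members (Hba-a1, Hba-a2, Alas2, S100a9 and Ltf) and in 25.4% of all 32851 windows. TTGCNNAA was present in 3 of the 8, which were S100a9, Ngp and Ltf, and in 10.8% of all windows. TATAA was found in 5 of the 8 against 24.9%, CCAAT in 4 of the 8 against 37.4%, and CACCC in 6 of the 8 against 57.5%. Each match only says that these letters are in the window. In the Ltf window the CCAAT and TTGCNNAA matches overlap.

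All 5 red cell transcripts were present at low levels in nearly all libraries. Of their 100 cells (5 genes in 20 libraries) 1 was empty, and the 5 together held 39 to 674 reads per library. Summed, they made up 0.712 to 11.6 RPM, a 16.3-fold range, with the lowest value in F2 sacral and the highest in M3 lumbar. Globin reads that fit both copies were not counted, so these sums leave them out. The neutrophil transcripts were of a different kind: 42 of their 100 cells were empty, and their sum ran from 0 reads in F2 lumbar and M5 sacral to 1420 reads in M1 sacral. An empty cell holds no read, which still allows an expected number of up to 3 reads, at most 0.0683 RPM. The 3 libraries with the most held 65.05% of all neutrophil reads and 37.4% of all red cell reads.

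**Figure D1:**
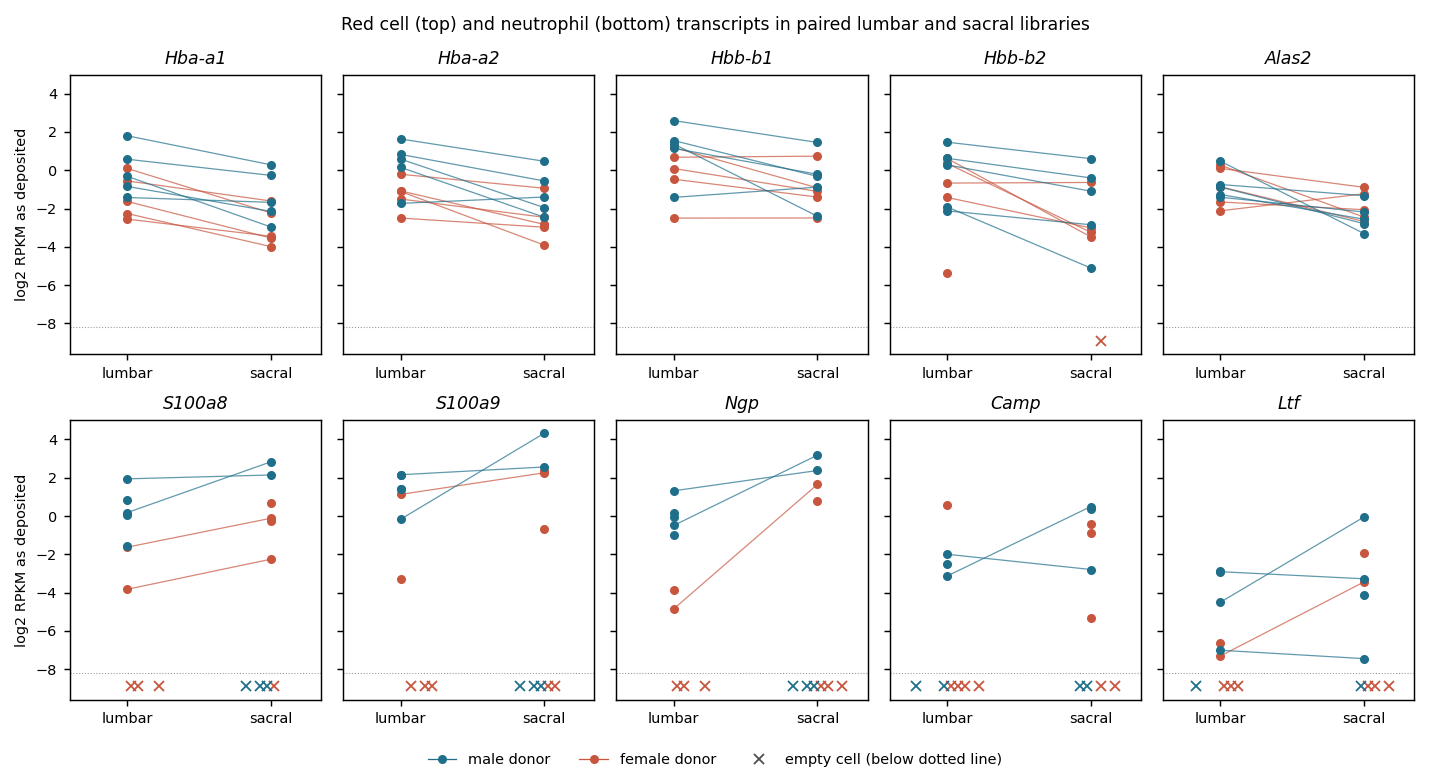
Log2 RPKM as deposited of each transcript in lumbar and sacral libraries, with a line for each donor that has both values; blue marks male and red female donors, and crosses under the dotted line are empty cells. The Hba-a1 line falls from lumbar to sacral in all 10 donors, whereas every neutrophil panel has 7 or more crosses.

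Hba-a1, one of the 2 genes for α-globin, was upregulated in lumbar DRG. In male donors M1 to M5 it had 15, 26, 124, 57 and 17 reads in lumbar and 13, 6, 49, 43 and 9 in sacral libraries. In female donors F1 to F5 it had 10, 10, 41, 20 and 8 reads in lumbar and 4, 3, 11, 13 and 5 in sacral libraries. M3 was the highest donor at both levels, and lumbar and sacral libraries overlapped, but within each donor the lumbar library was higher.

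On the log2 RPKM scale Hba-a1 was at -0.71 ± 1.33 in lumbar and -2.16 ± 1.40 in sacral DRG (SD, n = 10 each). The log2 fold change was 1.45 (SE 0.44, adjusted p = 0.0105, limma), and the paired differences ran from 0.25 to 2.65. It was higher in lumbar in 10 of 10 donors, as were 6.55% of the 15318 tested genes with a value in every library. Differences are lumbar minus sacral throughout, so that a negative value is upregulation in sacral DRG. In sorted pools, fewer cells of a type and less RNA per cell cannot be told apart.

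Hba-a2, the second α-globin gene, had 7 to 91 reads in lumbar (median 19.5) and 3 to 46 in sacral libraries (median 8.5). Its log2 RPKM was -0.49 ± 1.30 in lumbar and -1.90 ± 1.30 in sacral DRG. It was also upregulated in lumbar DRG, by 1.41 (SE 0.41, adjusted p = 0.0082, limma), and M1 was the 1 donor of 10 with the higher value in the sacral library.

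Hbb-b1, the 1 of the 4 globin transcripts with the most uniquely assigned reads, had 9 to 228 in lumbar (median 63) and 8 to 117 in sacral libraries (median 26.5). The log2 RPKM was 0.42 ± 1.52 in lumbar and -0.76 ± 1.24 in sacral DRG. The difference of 1.18 (SE 0.48, adjusted p = 0.0495, limma) passed the threshold by little and was in the lumbar direction in 7 of 10 donors. The call was lost when any one of M2, M4, M5, F1, F3 or F5 was left out (adjusted p = 0.0747 to 0.138, limma).

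Hbb-b2, the second β-globin gene, did not pass the test on the deposited values. It had 1 to 85 reads in lumbar (median 25) and 0 to 53 in sacral libraries (median 5), and its 1 empty cell was in F2 sacral. The difference was 1.45 (SE 0.73, adjusted p = 0.109, limma). In the 9 donors with both values it was higher in lumbar in 8. Without F2, whose lumbar library held 1 read, it was 1.87 (adjusted p = 0.0177, limma).

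Alas2, the erythroid form of the first and rate-limiting enzyme of heme synthesis, had 29 to 146 reads in lumbar (median 61.5) and 12 to 69 in sacral libraries (median 27). The log2 RPKM was -0.81 ± 0.86 in lumbar and -2.15 ± 0.78 in sacral DRG, and the difference was 1.34 (SE 0.36, adjusted p = 0.0050, limma). It was higher in lumbar in 9 of 10 donors, with F5 the exception, at 32 reads in lumbar and 69 in sacral. By RPM it was higher in lumbar in 8 of 10. Apex2, whose exon overlaps Alas2 and which was looked up after its position was seen, had 238 to 633 reads per library and a smaller difference of 0.55 (SE 0.16, adjusted p = 0.0087, limma).

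So 4 of the 5 red cell transcripts were called higher in lumbar DRG, as were 15.2% of all 16304 genes tested. The filter on low values, a mean log2 RPKM above -1 in at least 1 group, was passed by Hba-a1, Hba-a2 and Hbb-b2 in male lumbar alone and by Alas2 in the lumbar groups alone, so the count rests in part on how they were let in. With no filter 3 of the 5 were called, against 12% of 22280 genes, and Hbb-b1 was not (adjusted p = 0.0667, limma). In that fit the median log2 fold change was 1.41 over the 5 and -0.05 over all genes. Voom on recovered reads counts an empty cell as 0 reads. On the genes that passed the filter on low values it called 4 of the 5, and 22.7% of 16000 genes, higher in lumbar. The 4 were Hba-a1 at 1.49, Hba-a2 at 1.47, Hbb-b2 at 1.81 and Alas2 at 1.44 (adjusted p = 0.0116, 0.0119, 0.0431 and 0.0018), while Hbb-b1 was at 1.22 (adjusted p = 0.062, voom). Voom on all genes with a read in at least 5 libraries called 3 of the 5, and 3743 of 23149 genes, higher in lumbar. There Hbb-b2 was at 1.78 (adjusted p = 0.065) and Hbb-b1 at 1.19 (adjusted p = 0.102, voom), and neither was called. The summed level of the 5 was higher in the lumbar library in 10 of 10 donors.

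An exact two-sided sign-flip test over the 10 donor differences of log2(RPM + 0.1), adjusted over 23149 genes, called 5.68% of genes higher in lumbar. It called Hba-a1 at 0.77 (adjusted p = 0.00783), Hba-a2 at 0.75 (adjusted p = 0.0212) and Hbb-b2 at 0.86 (adjusted p = 0.0123), but not Hbb-b1 at 0.75 (adjusted p = 0.073) or Alas2 at 0.89 (adjusted p = 0.0592). The added 0.1 makes these differences smaller than those on the deposited scale. Scaling to total reads moved the median of all genes to -0.43, against which Hba-a1 stood 1.49 higher, and on the deposited scale Hba-a1 stood 1.56 above the median.

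**Figure D2:**
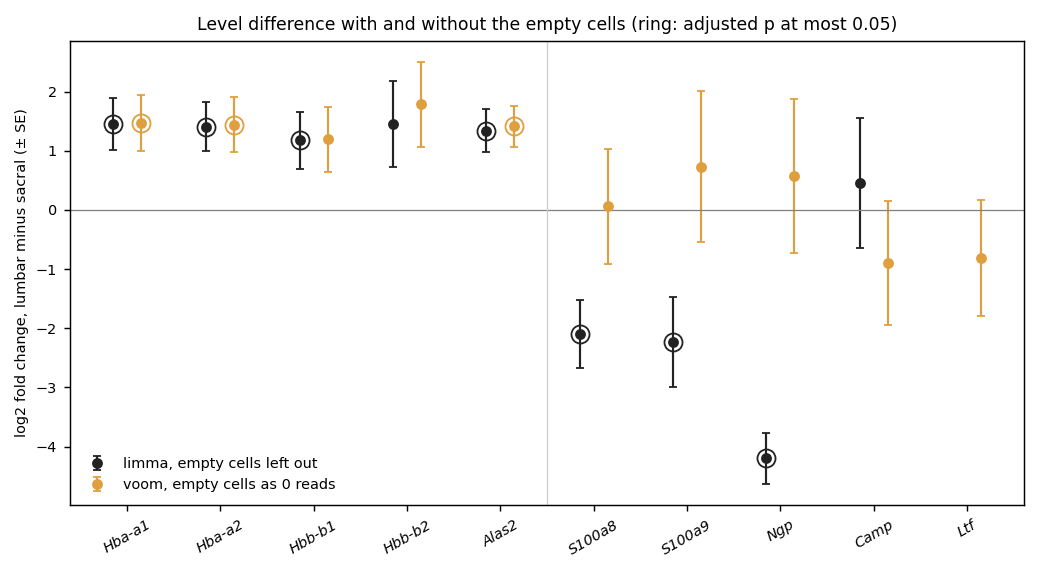
Log2 fold change, lumbar minus sacral, with its SE for each transcript, from limma with empty cells left out (black) and from voom with empty cells counted as 0 reads (orange, on all genes with a read in at least 5 libraries); a ring marks an adjusted p of at most 0.05. The red cell points stay between 1.18 and 1.78 in both fits, whereas S100a8, S100a9 and Ngp move from between -4.20 and -2.09 to between 0.06 and 0.73.

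The neutrophil transcripts gave different results in the 2 fits. S100a8 and S100a9 encode the calcium-binding subunits of calprotectin, which is abundant in neutrophil cytoplasm. Ngp, Camp and Ltf encode neutrophilic granule protein, the cathelicidin antimicrobial peptide and the iron-binding protein lactotransferrin, all of the secondary granules.

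Ngp had the widest span. In male donors M1 to M5 it had 43, 24, 133, 56 and 51 reads in lumbar and 566, 0, 314, 0 and 0 in sacral libraries. In female donors F1 to F5 it had 0, 0, 2, 3 and 0 reads in lumbar and 0, 0, 244, 0 and 143 in sacral libraries. The sacral libraries were thus empty in 6 of 10 and at 143 reads or more in the other 4, and the highest lumbar library, M3 with 133 reads, was above F5 sacral in log2 RPKM (1.32 against 0.80).

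With empty cells left out, as in the deposited table, Ngp was at -1.26 ± 2.26 in 7 lumbar and 2.005 ± 1.015 in 4 sacral libraries (SD), and the fitted log2 fold change was -4.20 (SE 0.43, adjusted p = 1.5e-05, limma). The fit gives the sexes equal weight, with a female lumbar mean of -4.36 from 2 libraries of 2 and 3 reads beside a male one of -0.01, so it differs from the plain difference of the means. This fit drops 9 libraries, and Ngp passed the filter in male lumbar alone, S100a8 and S100a9 in male lumbar and female sacral, and Camp in male sacral alone. With empty cells as 0 reads the difference was 0.55 (SE 1.38, adjusted p = 0.772, voom). By RPM, 4 donors had more in lumbar, 4 more in sacral and 2 had none at either level.

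S100a9 was similar. It had 23, 55, 102, 110 and 53 reads in male lumbar libraries and 535, 0, 153, 0 and 0 in male sacral libraries. Female lumbar libraries held 2, 0, 54, 0 and 0 reads, and female sacral libraries 0, 0, 159, 132 and 22. Of the 20 libraries 8 were empty, and the 4 highest were all sacral.

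The log2 fold change of S100a9 was -2.23 (SE 0.76, adjusted p = 0.0277, limma) over the 12 libraries with a value and 0.75 (SE 1.32, adjusted p = 0.674, voom) over all 20. The call was lost without M1 (adjusted p = 0.157), F1 (adjusted p = 0.158) or F4 (adjusted p = 0.0623, limma).

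S100a8 had a value in 13 libraries, with 0 to 66 reads in lumbar (median 5.5) and 0 to 143 in sacral libraries (median 11.5). Its difference was -2.09 (SE 0.58, adjusted p = 0.0088, limma) with empty cells left out and 0.05 (SE 1.003, adjusted p = 0.970, voom) with them as 0. Without M1 the first became -1.84 (adjusted p = 0.0583, limma).

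Camp had a value in 10 libraries. Its reads numbered 32 in F4 lumbar and 42, 40, 29 and 19 in M3, M1, F3 and F1 sacral, and no other library held more than 6. The difference was 0.46 (SE 1.10, limma) and -0.91 (adjusted p = 0.513, voom). In the limma fit the female lumbar group rested on 1 library, F4, and had the same weight as the other groups. The plain means went the other way, at -1.77 in 4 lumbar and -1.42 in 6 sacral libraries.

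Ltf had a value in 12 libraries, of which M1 sacral alone held 136 of its 261 reads, or 52.1%. It was below the filter on low values, and with no filter it was at -2.46 (SE 1.07, adjusted p = 0.0963, limma). With voom on all genes with a read in at least 5 libraries, it was at -0.81 (SE 0.98, adjusted p = 0.567).

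With limma, then, 3 of the 4 neutrophil transcripts tested were called higher in sacral DRG, against 30.3% of all genes. With voom none of the 4 was called, nor did any have an unadjusted p under 0.05, against 19.8% of genes called higher in sacral. The pseudocounts of 1 and 0.1 and the exact sign-flip test, which also count empty cells as 0, called none of them. In the donors with a value at both levels, S100a8 was higher in sacral in 4 of 4, S100a9 in 3 of 3 and Ngp in 3 of 3. In other donors the transcript was seen at 1 level alone or at neither. For Ngp this was lumbar alone in 4 donors, sacral alone in 1 and neither in 2.

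**Figure D3:**
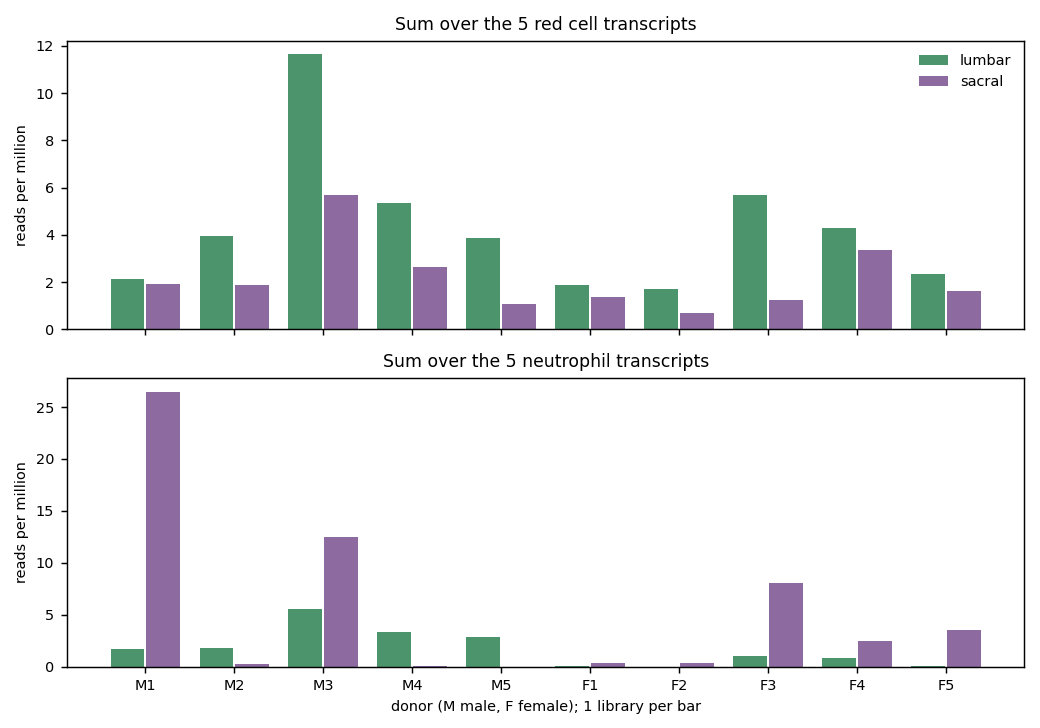
RPM summed over the 5 red cell (top) and the 5 neutrophil transcripts (bottom), with 1 bar for each lumbar (green) and sacral (purple) library of each donor. The lumbar bar is the taller in all 10 donors for the red cell sum and in 3 of 10 for the neutrophil sum, where M1 sacral reaches 26.5.

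The spread between libraries was wide for both families. For the transcripts with a value in every library, the SD of log2 RPKM over the 20 libraries was 1.52 for Hba-a1, 1.46 for Hba-a2, 1.48 for Hbb-b1 and 1.05 for Alas2, against a median of 0.40 over 17138 genes. These SDs, and those of all genes, include the difference between the levels. Within lumbar and within sacral libraries the SD was 1.33 and 1.40 for Hba-a1 and 1.30 and 1.30 for Hba-a2. It was 1.52 and 1.24 for Hbb-b1 and 0.86 and 0.78 for Alas2. Genes at low levels vary more, so each transcript was also set, by its SD over the 20 libraries, beside genes whose mean lay within 0.5 of its own. Among these, Hbb-b1 was above 98.6%, Hba-a1 above 95.3%, Hba-a2 above 94.9% and Alas2 above 70.9%.

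The share of a gene's reads in its 3 highest libraries allowed the neutrophil transcripts to be set on the same scale. This share was 71.2% for Ngp, 60.5% for S100a9, 63.3% for S100a8, 62.6% for Camp and 75.9% for Ltf, and 35.2% to 47.5% for the red cell transcripts. The median over 23149 genes with a read in at least 5 libraries was 25.2%. Among genes within 0.5 of the same log2 number of reads, Ngp was above 99.8% of 1516 genes, S100a9 above 99.6%, Ltf above 99.1%, S100a8 above 99.0% and Camp above 89.5%.

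**Figure D4:**
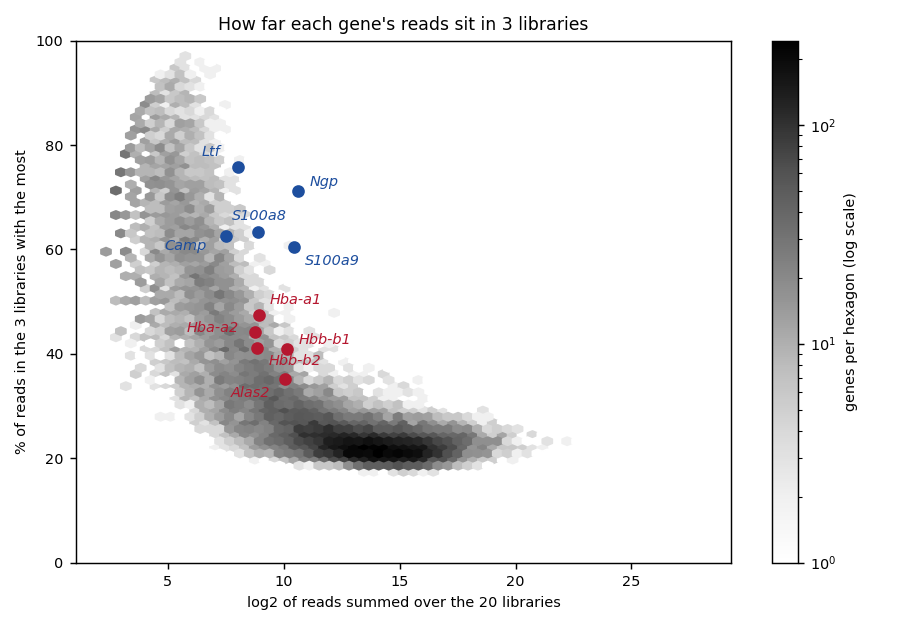
Share of each gene's reads that lies in its 3 highest libraries (y axis, percent) against log2 of its reads over all 20 libraries (x axis), with all 23149 genes as gray hexagons, red cell transcripts in red and neutrophil transcripts in blue. Ngp at 71.2% and S100a9 at 60.5% lie above the band of genes with as many reads.

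Over the libraries the globin transcripts were alike in pattern, as were S100a8, S100a9 and Ngp. Likeness is given as Spearman's rho of RPM over the 20 libraries, as a description without a test, since libraries share donors and depth. The 4 globin transcripts had rho of 0.72 to 0.89 with each other, and for Hba-a2 the most similar of 20910 other genes was Hbb-b1 (0.89). Alas2 stood apart, with rho of 0.08 to 0.29 to the globins. The genes most like Alas2 were Gm15680 (0.86), Thbs4 (0.85) and 7SK (0.79), and its rho with Apex2 was 0.41.

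Among the neutrophil transcripts, rho ran from 0.40 to 0.89 (median 0.61). S100a8 and Ngp were each the gene most like the other (0.89), S100a9 was most like Ngp (0.79), and Ltf had Ngp (0.81) among the genes most like it. Between the families rho ran from -0.11 to 0.52, with a median of 0.24. Within lumbar libraries alone the medians were 0.62 among red cell transcripts, 0.48 among neutrophil transcripts and 0.42 between the families, and within sacral libraries 0.67, 0.78 and 0.21.

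The remaining genes most like each member were of mixed kinds. They were Lox (0.90), Gas1 (0.90) and Snord35b (0.89) for Hba-a1, Rbm3 (0.88) and Mfsd7c (0.88) for Hba-a2, Dll4 (0.88) and Has1 (0.87) for Hbb-b1, and Has1 (0.87) for Hbb-b2. They were Plb1 for S100a8 (0.78) and for Ngp (0.84), and St8sia6 (0.76) for S100a9. For Camp they were Gm13440 (0.78), I830077J02Rik (0.76) and 2010109K11Rik (0.75), and for Ltf SNORA26 (0.78).

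**Figure D5:**
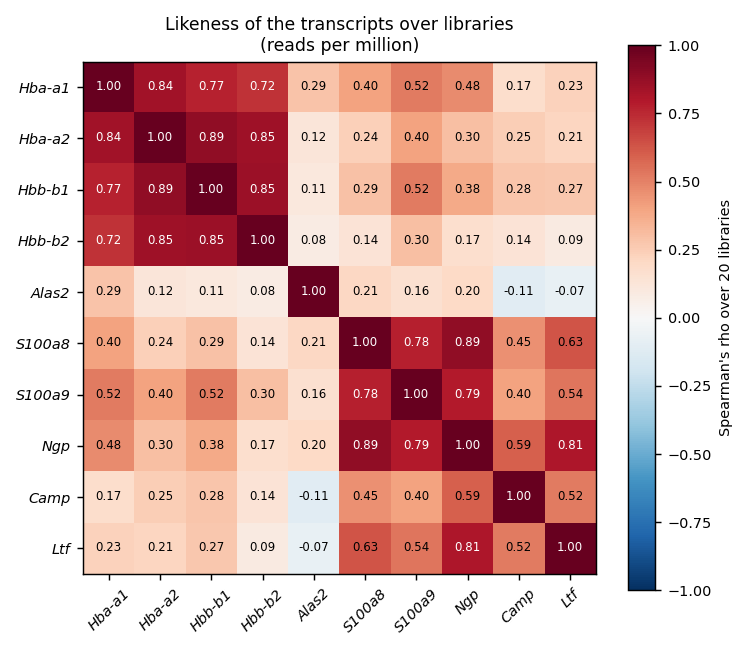
Spearman's rho between each pair of transcripts over the 20 libraries, from RPM, with red for positive and blue for negative values. The 4 globins form a block of 0.72 to 0.89 and S100a8, S100a9 and Ngp one of 0.78 to 0.89, while Alas2 has no rho above 0.29.

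Other genes of the red cell lineage ranged from no read in any library to reads in every library. Of 24 listed genes 23 were matched, 20 had a value in some library and 5 in all. The genes at the highest levels were Fech, Bpgm, Urod and Slc25a37, enzymes and carriers of heme and glycolytic metabolism that many cell types use, with 289 to 3331 reads per library. Of the 5 tested, 1 was called higher in lumbar and none in sacral by limma, with a median of 0.03. The summed RPM of the list was higher in sacral in all 10 donors (median 72.6 in lumbar and 91.3 in sacral libraries), the other way from the sum of the members. RPM is scaled to total reads, and with voom on that scale the median of all genes was itself on the sacral side, at -0.43. On the deposited scale Fech was at 0.02, Bpgm at 0.03, Slc25a37 at 0.14 and Urod at -0.25. Genes more particular to red cells and their precursors, named here after their values were seen, were low and patchy. Klf1, a transcription factor of these precursors, had 271 reads over 15 libraries, of which M2 sacral and F3 sacral held 99 each. Ermap had 161 reads in 9 libraries, Nfe2 118 in 13, Slc4a1 69 in 7 and Rhd 62 in 10. Gata1 had 12 reads in all libraries together, Spna1 8 and Hemgn 7, while Tspo2 and the embryonic globins Hbb-bh1 and Hbb-y had no value in any library.

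Other neutrophil genes were likewise scattered. Of 25 listed genes 21 had a value in some library and none in all 20, and 5 were seen in at least 10 libraries. Elane, the neutrophil elastase of primary granules, had 67 reads in M1 sacral and 157 in M3 sacral and none elsewhere. Mpo, the myeloperoxidase of the same granules, had 300 and 527 reads in these 2 libraries and 108 in F4 sacral, against at most 28 in every other library. Both are made by early precursors in bone marrow. M1 sacral and M3 sacral were also the libraries with the most Ngp. Of other listed genes, named here after their values were seen, Ctsg had 9 and 24 reads in these 2 libraries alone. The following were spread in other ways. Prtn3 had 119 reads over 11 libraries, with 26 in M3 sacral, 19 in F3 lumbar and 12 in M1 sacral. Cd177 was highest in M5 sacral, with 79 reads, where the neutrophil members held 0. Cxcr2 was highest in F4 sacral (131 reads) and Trem1 in M2 sacral (39 reads).

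Lcn2 and Pglyrp1, the 2 other listed neutrophil genes at the highest levels, behaved otherwise. Lcn2, a protein of secondary granules also made by other cells, had a value in 19 libraries and was 1.29 higher in lumbar (SE 0.49, adjusted p = 0.0388, limma). Pglyrp1 was at 0.93 (adjusted p = 0.188, limma) and 1.94 (adjusted p = 0.0121, voom). On the deposited values S100a8, S100a9 and Ngp had the other sign.

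Markers of other cells moved between the levels as well. The 7 endothelial genes were all called higher in lumbar (median log2 fold change 0.95), with Cdh5 at 0.95 and Flt1 at 1.09, and their sum was higher in 10 of 10 donors, from 53.8 to 312 RPM in lumbar and 43.6 to 189 in sacral libraries. Of 6 macrophage genes tested 4 were called higher in lumbar (median 1.41), among them Lyz2 at 1.72, a lysozyme that neutrophils also express. Of the 10 glial genes 8 were called higher in lumbar (median 0.93). Of the 9 neuronal genes 7 were called higher in sacral (median -0.66). None of these lists contains a member.

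The mean of the 10 glial markers was higher in lumbar in 10 of 10 donors, at 5.67 to 6.78 (median 6.32) in lumbar and 4.72 to 6.00 (median 5.29) in sacral libraries on the log2 RPKM scale. With this mean as a covariate none of the 5 red cell transcripts was called: Hba-a1 was at 0.14, Hba-a2 at 0.40, Hbb-b1 at -0.63, Hbb-b2 at -0.82 and Alas2 at 1.17 (adjusted p = 0.445 to 0.961, limma). Over all genes 213 were called in that fit, against 7418 without the covariate. Whether glial content plays a part in the red cell difference was not tested beyond this, since glial level and spinal level go together in every donor and cannot be told apart.

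Among platelet genes, Pf4, a chemokine of platelet granules, was 1.96 higher in lumbar (adjusted p = 0.0063, limma) and Gp1bb was higher in sacral (log2 fold change -0.45, adjusted p = 0.0023, limma), out of 2 tested of 6 listed. Gp1bb had 21427 reads over all libraries, against 648 for Itga2b, 300 for Pf4, 182 for Ppbp, 22 for Gp9 and 20 for Gp6. Whether the Gp1bb reads came from platelets was not tested. None of the 7 B cell genes or the 5 T cell genes was abundant enough to be tested, and the sum of each list stayed at or below 4.59 RPM. Cd79a and Cd4 had reads in every library, at 4 to 69 and 11 to 292. The 4 listed S100 relatives were far more abundant than S100a8 and S100a9: S100a6 was at a mean log2 RPKM of 8.78 in lumbar and 8.87 in sacral DRG, and S100a4 was the 1 of the 4 called, at 0.50 (adjusted p = 0.0062, limma).

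Between the sexes, Ngp was the 1 member called, in lumbar DRG, where 7 of 16386 genes (0.0427%) were called by limma. The log2 fold change, female minus male, was -4.39 (SE 0.58, adjusted p = 0.0202, limma), with 5 male values and only 2 female values, of 2 and 3 reads. Ngp entered this test only through male lumbar, the group where it is the higher. With empty cells as 0 it was -5.86 (adjusted p = 0.292, voom). The limma call was also lost without M4, M5, F3, F4 or F5 (adjusted p = 0.0562 to 0.141). The lowest male lumbar library (24 reads) was above the highest female one (3 reads), as held by RPM for 0.449% of 23149 genes.

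The neutrophil reads summed over the 5 transcripts include those of Ngp. In lumbar DRG the sums were 94, 101, 320, 205 and 123 in M1 to M5 and 2, 0, 62, 37 and 1 in F1 to F5. In sacral libraries the sums of the sexes overlapped, with 1420, 14, 609, 1 and 0 in males and 19, 19, 500, 136 and 225 in females. Male and female lumbar libraries held 307 and 5 reads of Ngp, 343 and 56 of S100a9, 142 and 7 of S100a8 and 37 and 2 of Ltf. Camp went the other way, with 14 and 32. No test was made on the sum.

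In sacral DRG 6 of 16321 genes (0.0368%) were called between the sexes, none of them a member, by limma or by voom. At an unadjusted p under 0.05 there were 3 of 9 members with limma, against 8.09% of genes, and 0 of 9 with voom, against 10.4%. The 3 were the near copies Hba-a1 and Hba-a2, and S100a8, which had a value in 2 male and 4 female sacral libraries. The α-globins were lower in females at both levels, but not past the test. Both entered the test only through male lumbar, the group where they are highest. Hba-a1 was at -0.04 ± 1.27 in male and -1.38 ± 1.13 in female lumbar DRG (SD, n = 5 each), with a difference of -1.34 (adjusted p = 0.462, limma). In sacral DRG it was at -1.36 ± 1.34 and -2.965 ± 1.001, with a difference of -1.61 (adjusted p = 0.577, limma). For Hba-a2 the differences were -1.57 in lumbar (adjusted p = 0.374) and -1.44 in sacral DRG (adjusted p = 0.586, limma).

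No gene of 16304 passed the test of the difference between the 2 sex differences by limma, and none of 16000 by voom, with 658 and 743 at an unadjusted p under 0.05. Among the members, Ngp had the lowest unadjusted p by limma, with -2.96 (SE 0.86, adjusted p = 0.9996). With voom, S100a8 was at -5.57 (SE 2.01, unadjusted p = 0.0109) and S100a9 at -5.91 (SE 2.63, unadjusted p = 0.0349), both with an adjusted p near 1.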

How the data were processed

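RNA was sequenced from sorted Trpv1 DRG neurons of 10 donors at 2 spinal levels. The authors aligned reads to mm9 with Subread, counted uniquely mapped reads on Ensembl genes with featureCounts, and normalized them with voom (limma) and TMM (edgeR). The table the authors deposited holds log2 RPKM for 37620 genes with equal library medians (0.93). Its 319449 empty cells hold no read. Read numbers were worked back from the low values, and 98.2% of 27999 genes came out whole within 0.01 of a read.

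The main test was limma 3.58.1 (R 4.3.3), with 4 group means, a trended variance prior and donors blocked at random, adjusted by Benjamini-Hochberg over all genes at 0.05. Genes entered with a mean above -1 in a group with at least 3 values. Donor pairs come from the shared animal numbers. Same-donor deviations correlated at 0.18 on average (0.04 to 0.30), other donors of a sex at -0.04. Alternatives were other filters, pseudocounts, voom on reads, quantile normalization, other donor models, weights, a glial covariate, an exact sign-flip test, each sex alone and each donor left out. Voom on genes with a read in at least 5 libraries, and without single libraries, was added after seeing the data. Tests were checked on simulated data with a fixed spread, and in the simulated reads only better-counted genes were changed. This check does not cover transcripts that are empty in many libraries. Members, marker lists and tests were chosen with earlier results of these data known. Named genes are the members, the 3 genes most like each, and up to 4 per marker list with the highest level, unless stated otherwise. Some genes that this rule names are not reported here.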

Additional observations from a re-analysis of the deposited data

Results flagged for a closer look

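Hbb-b2 in female sacral DRG stood out because F4, at a log2 RPKM of -0.64 from 22 reads, lay far above the other 3 female sacral libraries with a value, which were between -3.48 and -3.01. Its gap to the nearest was 0.835 of the whole range, against a limit of 0.829 for 4 values. It was 1 of 26 groups of member values tested for such a sample, and chance gives about 1 in 20.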

How the results depend on the processing

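Of the 4 members called higher in lumbar DRG, the count was 2 with genes above a mean of 0. That filter left Hba-a1, Hbb-b2 and Alas2 untested. The 2 red cell members still tested, Hba-a2 and Hbb-b1, were both called (adjusted p = 0.0107 and 0.0448, limma). The count was 0 with the glial mean as a covariate, 1 in males alone (Alas2) and 0 in females alone, where Hba-a1 and Hba-a2 were below the filter. It was 3 to 5 with a donor left out and 3 to 5 with a library left out of voom. Of the 3 called higher in sacral DRG, the count was 0 with pseudocounts of 1 and 0.1 and with voom under TMM, total reads or genes in at least 5 libraries. It was also 0 in the sign-flip test and in females alone, where Ngp had too few values to be tested. The count was 1 to 3 with a donor left out and 0 with a library left out of voom. The lumbar sex count of 1 was 0 with the filter above 0, where Ngp was not tested. It was also 0 with both pseudocounts, each voom fit, no trend and array weights, and 0 to 1 with a donor left out. No member was called between the sexes in sacral DRG under any alternative run.

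With no replicate block for donor pairing, 3 members were called higher in lumbar and 3 in sacral, and Hbb-b1, at 1.18, lost its call (adjusted p = 0.0901, limma). With the block as a fixed effect these were 5 and 3, Hbb-b2 was called at 1.83 (adjusted p = 0.00377, limma) and Camp was at -1.42.

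Directions that turned were as follows. With the glial covariate, Hbb-b1 was at -0.63, Hbb-b2 at -0.82 and Camp at -0.84. With voom under TMM, total reads and genes in at least 5 libraries, S100a9 was at 0.75, 0.35 and 0.73, Ngp at 0.55, 0.17 and 0.58, and Camp at -0.91, -1.29 and -0.90. S100a8 was at 0.054 under TMM and 0.062 with genes in at least 5 libraries, but at -0.35 under total reads. With log2(RPKM + 0.1), S100a9 was at 0.17 and Camp at -0.68, and with log2(RPKM + 1) Camp was at -0.21. Camp was at -1.84 in males alone and -0.68 in the sign-flip test. With M1 sacral, M3 lumbar or M3 sacral left out of voom, the range was -0.08 to 0.71 for S100a8, 0.70 to 1.68 for S100a9, 0.45 to 1.38 for Ngp and -0.92 to -0.45 for Camp. With a donor left out of limma it was -2.52 to -1.84 for S100a8, -3.14 to -1.25 for S100a9, and -4.61 to -3.70 for Ngp. Camp could be fitted without M4, M5, F1, F2, F3 or F5, with a range of -0.33 to 0.91, below 0 without F5, and it gave no value without M1, M2, M3 or F4. The voom fits differ from limma by construction in counting empty cells as 0 reads. Otherwise the cause was not tested.

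The share of calls higher in lumbar was 33.4% with limma on the deposited values, 53.4% with voom under TMM, 13.03% with voom on total reads, 47.1% with quantile normalization and 12.8% in the sign-flip test. Between the sexes in sacral DRG, 6 genes were called by limma and 37 by voom.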
